A study of Homo sapiens with 18 samples.

Results

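RAB GTPases were described across 6 groups of melanoma cells in which FHL2, PMEL or NFYA had been altered. The RAB genes were taken as all genes in the expression table with a single current symbol made of RAB, a number and an optional letter, so that effectors and regulators such as the RAB11FIP and RAB3GAP genes were left out. The rule gave 43 genes with 93 probe sets, of 10940 genes tested. Where a gene had several probe sets, the brightest on average over all arrays stood for it. A further 9 probe sets carried a RAB symbol together with another symbol (RAB6A with RAB6C or RAB6D, RAB34, RAB4B and RAB43) and were left out. All 43 genes passed the filter on low values, and 40 of them lay at log2 4 or more in every array used; the other 3 were RAB9B, RAB31 and RAB39B.

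RAB proteins are small GTPases that mark membranes and direct vesicle traffic. Guanine nucleotide exchange factors load them with GTP, GTPase-activating proteins switch them off, and prenyl groups together with the GDI proteins decide whether they sit on a membrane or in the cytosol. In the active form they bind effectors, among them tethers and motor adaptors. In pigment cells RAB32 and RAB38, loaded by the HPS1 and HPS4 complex, serve the delivery of pigment enzymes to the melanosome, and RAB27A holds mature melanosomes at the cell edge through melanophilin (MLPH) and myosin Va (MYO5A). Loss of RAB27A causes a known syndrome of pale hair and immune defects.

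The data were 18 microarrays in 6 groups of 3, hybridised with total RNA of A375M2 or C32. Both are human melanoma cell lines, and A375M2 was derived from A375 for its metastatic growth. A375M2 cells carried a lentiviral GFP control, full-length PMEL, a pool of 3 short hairpin RNA (shRNA) constructs against FHL2 (shFHL2), or shRNA against NFYA (shNFYA); C32 cells carried GFP or shFHL2. Cells were sorted for high GFP and kept under selection, with blasticidin for the PMEL vector and puromycin for the shRNAs. FHL2 is a LIM domain scaffold, PMEL builds the fibrils inside melanosomes, and NFYA is the subunit through which NF-Y recognises CCAAT boxes in promoters. Both an empty eGFP vector and copGFP particles are described, and the labels do not say which one the GFP arrays hold; no group with a non-targeting shRNA is labelled. The culture and selection steps are described for A375M2.

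The targeted genes were checked first. Mean log2 signal of FHL2 was 11.21 ± 0.05 (SD, n = 3) in A375M2 GFP and 7.17 ± 0.14 in A375M2 shFHL2, and it was 11.08 ± 0.06 (n = 2) in C32 GFP and 5.83 ± 0.46 in C32 shFHL2. NFYA was at 9.59 ± 0.17 in A375M2 GFP, 7.52 ± 0.18 in shNFYA and 8.86 ± 0.09 in shFHL2. PMEL was at 5.57 ± 0.20 in A375M2 GFP, 8.95 ± 0.06 with the PMEL vector and under log2 4 in both A375M2 shRNA groups. The melanocyte marker list had 7 measured genes, of which 6 reached log2 4 in A375M2 GFP and PMEL, 3 in shFHL2, 4 in shNFYA and 7 in both C32 groups; MLANA was under 4 in every A375M2 group. The log2 of the summed signal of that list ran from 15.15 to 15.24 in A375M2 GFP, from 13.09 to 13.20 in shFHL2, from 12.98 to 13.05 in shNFYA, from 16.42 to 16.49 in C32 GFP and from 15.36 to 15.45 in C32 shFHL2. Of all genes tested, 41.1% were called higher and 44.3% lower with shFHL2 in A375M2, and 43.5% and 43.3% with shNFYA. With PMEL these shares were 22.1% and 17.8%, and in C32 shFHL2 they were 32.2% and 30.3%. The epithelial marker list had 4 measured genes. All were called higher with shFHL2 and with shNFYA in A375M2, and 0 were called with PMEL or in C32 shFHL2. KRT14 and KRT8 were under log2 4 in A375M2 GFP and PMEL, and KRT14 also in A375M2 shFHL2. In both C32 groups KRT14, KRT18 and KRT8 were under log2 4. The summed signal of the epithelial list ran from 11.37 to 11.52 in A375M2 GFP, from 12.75 to 12.82 in shFHL2, from 12.12 to 12.21 in shNFYA, from 7.08 to 7.51 in C32 GFP and from 7.44 to 7.59 in C32 shFHL2. Of 5 fibroblast markers tested, 1 was higher and 4 lower with each A375M2 shRNA, 0 and 4 with PMEL, and 2 and 1 in C32 shFHL2. The summed signal of the fibroblast list ran from 11.50 to 11.69 in A375M2 GFP, from 10.21 to 10.25 in PMEL, from 8.92 to 9.04 in shFHL2, from 8.74 to 8.93 in shNFYA, from 12.15 to 12.32 in C32 GFP and from 12.73 to 12.75 in C32 shFHL2. The part of these marker differences in the results on RAB genes was not tested. PTPRC, a leukocyte marker, was at 2.16 to 2.28 in A375M2 and at 7.67 to 8.65 in C32.

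Some arrays were not independent of each other. The third C32 GFP array matched the average of the other 2 almost exactly (SD of the difference 0.00669 over 13428 probe sets, against 0.088 to 0.141 in the other groups) and was left out, so C32 GFP has n = 2. The sum of A375M2 GFP replicate 3 and PMEL replicate 3 lay on the sum of the means of replicates 1 and 2 of these groups with an SD of 0.00591, against 0.135 to 0.178 for the same sum in pairs of shRNA groups. These 6 arrays therefore do not hold 6 independent values. Replicate 3 of A375M2 GFP is also in every other comparison with A375M2 GFP. Both replicate 3 arrays enter the spread estimate behind every p-value and SE, which carry this limit too. The called results on PMEL named in the text are given with both of these arrays, and again without replicate 3 of GFP and PMEL. Identical values under log2 4 also divided the arrays into sets: replicates 1 and 2 of A375M2 GFP and PMEL shared 511 to 518 of them across groups, the 2 A375M2 shRNA groups shared 300 to 309 with each other, and the A375M2 shRNA groups shared 0 with A375M2 GFP or PMEL. Array set and shRNA treatment therefore cannot be told apart in A375M2. Replicate 3 of A375M2 GFP and of PMEL shared 514 such values with each other and 0 with replicates 1 and 2. Within C32, GFP replicates 1 and 2 shared 372 such values with each shFHL2 array, and they shared 0 with A375M2 GFP, so line and array set cannot be told apart between the GFP groups. The C32 arrays other than GFP replicate 3 shared 38 to 50 such values with the A375M2 shRNA arrays. Mean signal of the 18S control probe sets was 12.52 in A375M2 GFP, 11.08 in PMEL, 14.18 in shFHL2, 14.19 in shNFYA, 13.28 in C32 GFP and 13.94 in C32 shFHL2. In the same order, mean signal of the poly-A spike-in probe sets was 7.15, 6.90, 6.57, 6.84, 9.37 and 5.96, and the actin 3′ signal exceeded the 5′ signal by 0.61, 0.74, 1.07, 1.19, 1.08 and 0.87 log2. The part of these control signals in the differences was not tested. Separate cultures are stated for A375M2 and not for C32, where the spread between arrays may be technical. The fit shared its spread estimate over all 17 arrays, most of them from A375M2. The p-values in C32 therefore do not measure a spread between C32 cultures.

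Over the 6 groups the 43 RAB genes differed widely among themselves. The median range of group means was 1.33 log2 for RAB genes and 1.71 for all genes tested. The span was 2-fold or more for 69.8% of RAB genes and 79.5% of all genes, and 4-fold or more for 39.5% and 41%. On the probe set used, the group means of 12 genes spanned less than 2-fold: RAB1A, RAB1B, RAB2A, RAB2B, RAB5A, RAB5B, RAB9A, RAB10, RAB11A, RAB14, RAB18 and RAB35. Of these, 8 have another probe set at a mean of log2 4 or more, and for 7 of the 8 (all except RAB18) at least 1 such probe set spanned 2-fold or more, up to 3.84 log2 for RAB11A and 3.44 for RAB2A. Most of the 12 work in transport between the endoplasmic reticulum and the Golgi or in early and recycling endosomes. These roles hold 8 and 16 of the 43 RAB genes. The group means of 17 genes spanned 4-fold or more, among them all 4 genes with a melanosome or related role (RAB27A, RAB27B, RAB32 and RAB38). The 17 also include RAB30, a Golgi RAB, and RAB4A, RAB8B, RAB13, RAB17, RAB20 and RAB31 of the early and recycling endosome role. Within a group the median SD of a RAB gene was 0.05 log2 and the highest was 0.32.

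**Figure D1:**
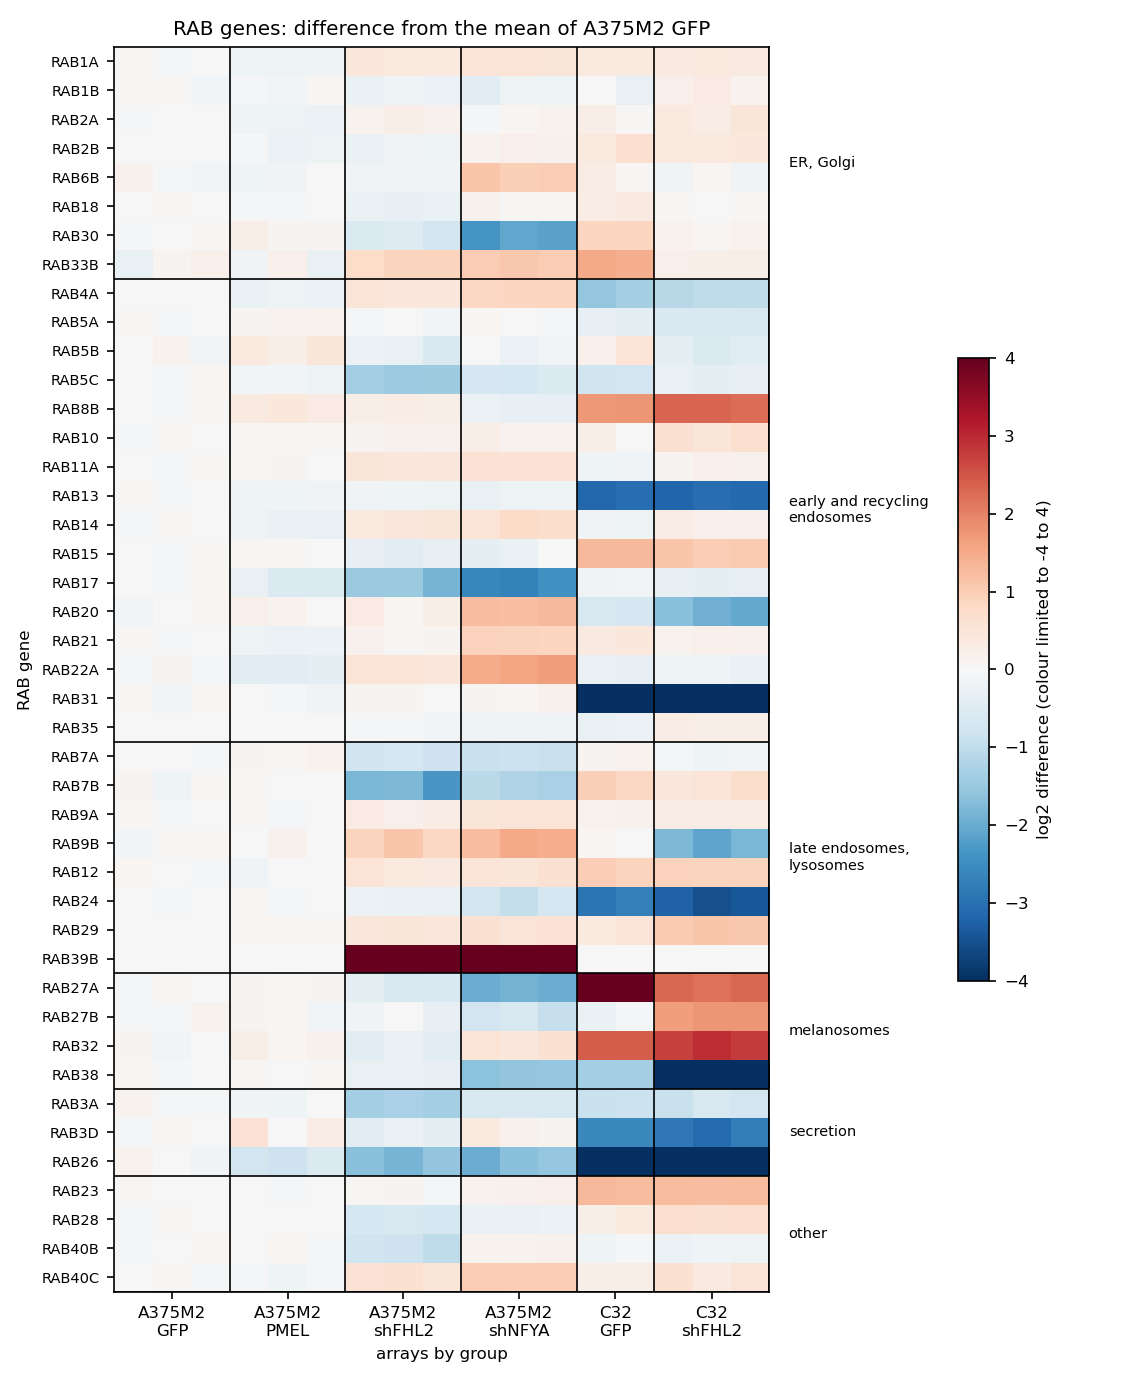
Difference of each of 43 RAB genes (rows, grouped by role) from its mean in A375M2 GFP, in log2, for each of 17 arrays (columns, grouped by treatment). The colour scale ends at -4 and 4, which RAB39B, RAB31, RAB26, RAB27A and RAB38 pass in at least 1 group; most rows of the ER and Golgi block are pale.

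On the probe set used, RAB27A, the melanosome capture GTPase, was highest in C32 GFP and lowest in A375M2 shNFYA. Its log2 signals were 8.78, 8.95 and 8.85 in A375M2 GFP, 8.96, 8.93 and 8.96 in PMEL, 8.46, 8.22 and 8.26 in shFHL2, and 6.89, 6.97 and 6.87 in shNFYA. In C32 they were 12.88 and 12.83 in GFP and 11.15, 11.04 and 11.15 in shFHL2. Every shFHL2 and shNFYA array lay below every GFP array of its line, while GFP and PMEL overlapped. On this probe set RAB27A fell by 1.95 ± 0.06 log2 (SE) with shNFYA (3.86-fold, adjusted p = 2.34e-15), and in C32 it fell by 1.74 ± 0.07 with shFHL2 (3.35-fold, adjusted p = 6.84e-13). In A375M2 shFHL2 the difference on this probe set was -0.55 ± 0.06 (adjusted p = 2.19e-07), and its direction there differed between probe sets.

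RAB27A had 5 probe sets. In C32 shFHL2 all 5 were lower than in GFP, with differences from -1.74 to -0.87 log2. In A375M2 shFHL2 the differences were -0.55 for the probe set used, -0.47 for the second, -0.27 for the third (the one with adjusted p = 0.146), and 1.31 and 1.19 for the other 2. With shNFYA the same 5 differed by -1.95, -2.27, -2.20, 0.63 and 0.62, all past the threshold. The table does not say which transcript or exon each probe set reads, so no A375M2 direction is given for RAB27A as a whole. Between the lines all 5 were higher in C32 GFP than in A375M2 GFP, by 3.15 to 4.63 log2.

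**Figure D2:**
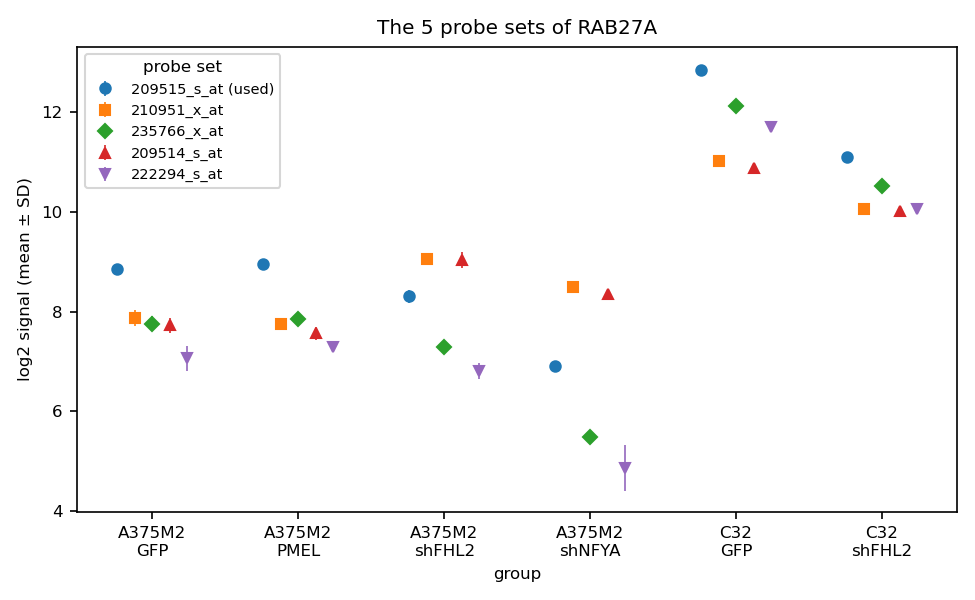
Mean log2 signal with SD of each of the 5 RAB27A probe sets in the 6 groups (n = 3, and 2 for C32 GFP). From A375M2 GFP to shNFYA 3 probe sets drop and 2 rise, whereas all 5 are highest in C32 GFP.

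RAB38, which carries pigment enzymes to the melanosome with RAB32, was the RAB gene with the largest fall in C32 shFHL2. Its signals were 11.09 and 11.12 in C32 GFP and 7.53, 7.61 and 7.30 in C32 shFHL2. This was a fall of 3.62 ± 0.07 log2 (12.3-fold, adjusted p = 2.36e-17), with no overlap between the arrays. In A375M2 the signals were 12.52, 12.37 and 12.42 in GFP, 12.47, 12.42 and 12.47 in PMEL, 12.13, 12.17 and 12.12 in shFHL2, and 10.79, 10.85 and 10.89 in shNFYA. RAB38 thus fell by 0.30 ± 0.06 with shFHL2 (adjusted p = 0.000191) and by 1.59 ± 0.06 with shNFYA (adjusted p = 2.8e-14) in A375M2. The shFHL2 difference was 3.33 ± 0.09 log2 more negative in C32 than in A375M2 (adjusted p = 1.02e-15).

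RAB32 moved otherwise. Its signals were 8.79, 8.56 and 8.65 in A375M2 GFP, 8.90, 8.74 and 8.84 in PMEL, 8.23, 8.39 and 8.22 in shFHL2, 9.22, 9.11 and 9.28 in shNFYA, 11.08 and 11.09 in C32 GFP, and 11.41, 11.62 and 11.47 in C32 shFHL2. With shFHL2 it fell by 0.39 ± 0.07 in A375M2 (adjusted p = 6.67e-05) and rose by 0.42 ± 0.08 in C32 (adjusted p = 0.00017), and with shNFYA it rose by 0.53 ± 0.07 (adjusted p = 1.38e-06). All C32 arrays lay at least 1.81 log2 above all A375M2 arrays.

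RAB27B, the paralogue of RAB27A that serves exocytosis, went the opposite way to RAB27A in C32. In C32 its signals were 7.91 and 8.11 with GFP and 9.85, 9.96 and 9.94 with shFHL2, a rise of 1.91 ± 0.11 log2 (3.75-fold, adjusted p = 6.15e-11). In A375M2 they were 8.11, 8.11 and 8.32 in GFP, 8.29, 8.27 and 8.07 in PMEL, 8.03, 8.15 and 7.85 in shFHL2 and 7.42, 7.53 and 7.25 in shNFYA. RAB27B fell by 0.78 ± 0.10 with shNFYA (adjusted p = 5.69e-07), and with shFHL2 the difference of -0.17 missed the threshold (adjusted p = 0.106), with overlapping arrays. The other probe set of RAB27B lay at 2.58 to 4.07 in group means and was not used.

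In the order of levels over groups, neighbouring groups whose arrays overlapped were A375M2 PMEL and GFP for RAB27A, RAB32 and RAB38. For RAB27B, the 4 groups between C32 shFHL2 at the top and A375M2 shNFYA at the bottom overlapped with their neighbours. Mean signal of MITF, the pigment cell transcription factor, was 14.24 in A375M2 GFP, 14.37 in PMEL, 10.05 in shFHL2, 8.95 in shNFYA, 14.96 in C32 GFP and 14.20 in C32 shFHL2. Its part in the levels of the RAB genes was not tested.

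**Figure D3:**
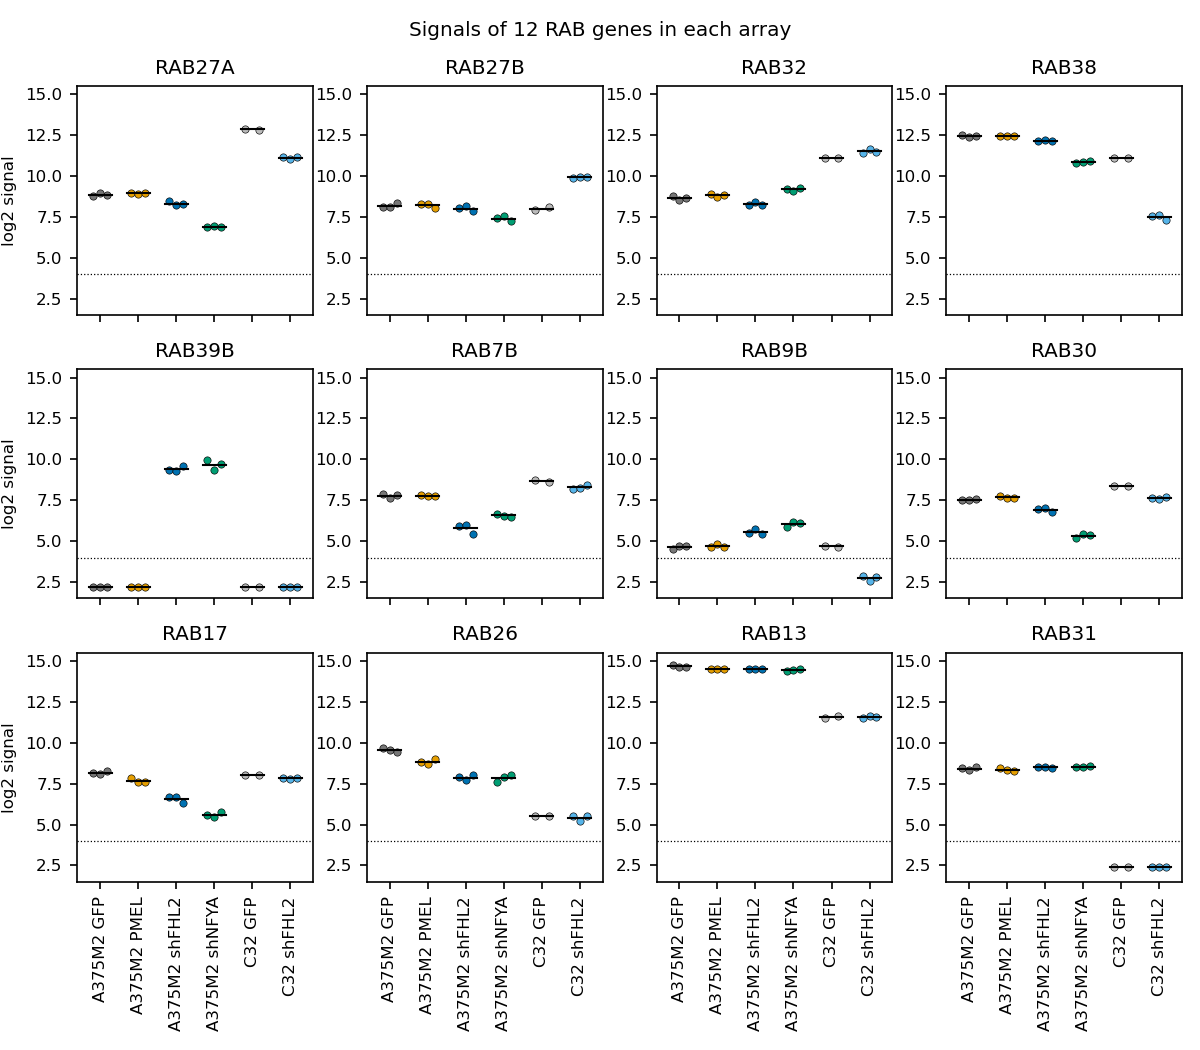
Log2 signal of 12 RAB genes in each array of the 6 groups; bars are group means and the dotted line is log2 4, the level of the filter. RAB39B lies at 2.20 to 2.21 in all arrays except those of A375M2 shFHL2 and shNFYA, RAB31 lies under 4 in C32, and RAB38 is lowest in C32 shFHL2.

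With shFHL2 against GFP in A375M2, 36 of 43 RAB genes were called at an adjusted p under 0.05, 16 higher and 20 lower. Of all genes 85.4% were called, 41.1% higher and 44.3% lower. A difference of 2-fold or more was called for 6 RAB genes, 1 higher and 5 lower, where 31.4% of all genes were called, 15.2% higher and 16.2% lower. With the probe set of largest variance for each gene, that count was 14 of 43. The share of all genes under that rule is not given, so the 14 cannot be set against 31.4%. The median size of the difference was 0.39 log2 for RAB genes and 0.62 for all genes. By role, called genes were 3 higher and 4 lower of 8 in the endoplasmic reticulum and Golgi, 7 higher and 5 lower of 16 in early and recycling endosomes, 5 higher and 3 lower of 8 in late endosomes, lysosomes and autophagy, 0 higher and 3 lower of 4 on melanosomes, 0 higher and 3 lower of 3 in regulated secretion, and 1 higher and 2 lower of 4 others. The 3 lower genes of regulated secretion were RAB3A, RAB3D and RAB26. The 3 lower genes on melanosomes were RAB27A, RAB32 and RAB38. These counts by role are of the probe set used, and some other RAB27A probe sets were called higher in A375M2 shFHL2.

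RAB39B, a RAB of late endosomes and autophagy best known from neurons, was the 1 gene higher by 2-fold or more. Its signals were 2.21 in all 3 A375M2 GFP arrays, 2.21 in all 3 PMEL arrays, 9.35, 9.29 and 9.62 in shFHL2 and 9.99, 9.35 and 9.70 in shNFYA. In C32 the signals were 2.20 in GFP and 2.20 in shFHL2. The fitted differences were 7.21 ± 0.13 log2 with shFHL2 (adjusted p = 1.04e-18) and 7.47 ± 0.13 with shNFYA (adjusted p = 4e-19). With values under log2 4 set to 4 they were 5.42 and 5.68, so the size of the rise depends on how the low end is treated. The other RAB39B probe set had group means of 2.20 in A375M2 GFP, 8.45 in shFHL2 and 8.77 in shNFYA. Such a pattern, under log2 4 in all A375M2 GFP and PMEL arrays and at 8 or more in all A375M2 shRNA arrays, was found for 37 of 10940 genes, and the reverse for 25; RAB39B was the only RAB gene with either.

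RAB7B, which acts between late endosomes and the Golgi, had signals of 7.89, 7.61 and 7.81 in A375M2 GFP, 5.95, 5.96 and 5.45 in shFHL2 and 6.68, 6.57 and 6.48 in shNFYA. No shRNA array reached the level of a GFP array, and the fall was 1.98 ± 0.12 log2 with shFHL2 (3.95-fold, adjusted p = 2.89e-11). RAB26, a RAB of secretory granules, stood at 9.71, 9.55 and 9.43 in GFP, 8.82, 8.73 and 8.98 in PMEL, a mean of 7.87 ± 0.15 (SD) in shFHL2 and 7.58, 7.89 and 8.03 in shNFYA, with no overlap between GFP and any other group. It fell by 1.69 ± 0.12 with shFHL2 (adjusted p = 2.44e-10). RAB17, a RAB of epithelial recycling endosomes, stood at 8.14, 8.10 and 8.25 in GFP and 6.69, 6.69 and 6.30 in shFHL2, and fell by 1.60 ± 0.11 (adjusted p = 1.7e-10). The other falls of 2-fold or more were those of RAB5C, an early endosome RAB (-1.42, adjusted p = 5.21e-15), and RAB3A, a RAB of synaptic vesicle release (-1.33, adjusted p = 2.13e-10).

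RAB5A, RAB7A and RAB29 were followed in every group. RAB5A, the early endosome RAB, had A375M2 signals of 13.09, 13.01 and 13.04 in GFP, 12.98, 13.07 and 12.94 in shFHL2 and 13.12, 13.06 and 12.99 in shNFYA, with overlapping arrays and differences of -0.05 (adjusted p = 0.235) and 0.01 (adjusted p = 0.746). On its most variable probe set RAB5A was higher, by 0.36 and 0.29. RAB7A, the late endosome and lysosome RAB, stood at 12.08, 12.09 and 12.02 in GFP, 11.27, 11.36 and 11.23 in shFHL2 and 11.18, 11.19 and 11.16 in shNFYA, a fall of 0.78 ± 0.04 (adjusted p = 7.72e-13) and of 0.89 ± 0.04 (adjusted p = 8.94e-14). RAB29, a relative of RAB32 and RAB38 that recruits the kinase LRRK2, stood at 11.57, 11.60 and 11.62 in GFP, 12.06, 12.08 and 12.06 in shFHL2 and 12.20, 12.11 and 12.16 in shNFYA. It rose by 0.47 ± 0.03 (adjusted p = 5.49e-10) and 0.56 ± 0.03 (adjusted p = 3.52e-11). LRRK2 itself differed by -4.25 and -4.60 log2 in the same comparisons, both past the threshold.

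With shNFYA 38 of 43 RAB genes were called, 21 higher and 17 lower, where 86.8% of all genes were called, 43.5% higher and 43.3% lower. At 2-fold or more 13 were called, 7 higher and 6 lower, where 35.8% of all genes were called, 17.3% higher and 18.5% lower. This comparison shares the A375M2 GFP arrays with that of shFHL2, so the values of both are given side by side. RAB17 differed by -2.58 log2 with shNFYA and by -1.60 with shFHL2. RAB30, a Golgi RAB, differed by -2.19 and -0.62, and its signals were 7.49, 7.53 and 7.57 in GFP, 6.94, 7.02 and 6.78 in shFHL2 and 5.18, 5.44 and 5.40 in shNFYA, which is 3 levels without overlap. RAB26 differed by -1.73 and -1.69, RAB38 by -1.59 and -0.30, and RAB7B by -1.19 and -1.98. All of these passed the test. The other RAB7B probe set was higher by 1.02 with shNFYA and differed by -0.42 with shFHL2.

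The rises with shNFYA were RAB39B, given above, RAB22A, an endosomal RAB (1.58, and 0.52 with shFHL2), RAB9B (1.40 and 0.93), RAB20, a RAB of phagosomes and early endosomes (1.25 and 0.21, the latter with adjusted p = 0.0656), RAB33B, a Golgi RAB that binds the autophagy protein ATG16L1 (1.04 and 0.85), RAB6B, a Golgi RAB (1.01 and -0.14, the latter with adjusted p = 0.19), and RAB40C, which joins a ubiquitin ligase through its SOCS box (1.00 and 0.56). RAB22A stood at 9.75, 9.94 and 9.78 in GFP, 10.36, 10.36 and 10.29 in shFHL2 and 11.31, 11.41 and 11.50 in shNFYA. Other probe sets went against the rises of RAB22A and RAB6B. With the probe set of largest variance the shNFYA differences were -0.80 and -1.24. Of 27 RAB genes with at least 2 probe sets at a mean of log2 4 or more, 10 had probe sets called in both directions with shNFYA and 7 with shFHL2.

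Set against each other, the 2 A375M2 shRNA groups, which share array set and low values, differed at 31 of 43 RAB genes, 8 higher and 23 lower in shFHL2, where 70.1% of all genes were called, 31.8% higher and 38.3% lower. Of these, 7 differed by 2-fold or more, where 10.4% of all genes did, 6.37% higher and 4.02% lower. RAB30 (1.58), RAB27A (1.40) and RAB38 (1.30) were higher in shFHL2, and RAB6B (-1.15), RAB22A (-1.07), RAB20 (-1.04) and RAB40B, the SOCS-box relative of RAB40C (-1.03), were lower. With the probe set of largest variance RAB6B differed by 0.03 (adjusted p = 0.932) and RAB22A by 0.06 (adjusted p = 0.388), and 4 RAB genes passed 2-fold, as also with the mean over probe sets. The shares of all genes under these probe set rules are not given. For RAB27A all 5 probe sets were higher in shFHL2 than in shNFYA, by 0.57 to 1.94. RAB39B missed the threshold (-0.26, adjusted p = 0.0802), and its other probe set was lower in shFHL2 (-0.32).

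Because NF-Y binds the CCAAT box, promoter sequences of the RAB genes were searched for it. Promoters came from the RefSeq table on build GRCh38.p14, as the 250 bases before each annotated start; 34 of 43 RAB genes matched, with 49 windows. RAB1A, RAB2A, RAB12, RAB15, RAB20, RAB26, RAB33B, RAB38 and RAB39B were not matched. The letters CCAAT, or ATTGG for the other strand, stood in 30.6% of the RAB windows and in 32% of all 35116 windows. They were found for 10 RAB genes, of which RAB2B, RAB23, RAB40B and RAB40C were higher with shNFYA, RAB5C, RAB7B, RAB8B, RAB27A and RAB30 were lower, and RAB5B was not called. These directions are those of the probe set used: RAB7B, RAB8B, RAB23, RAB27A and RAB40B also have a probe set called the other way. CACGTG stood in 10.2% of RAB windows and 6.34% of all windows, and CATGTG or CACATG in 6.12% and 9.42%; both forms are E-boxes of the kind MITF binds. A match is a description of the letters and not a bound site. The 4 windows below are examples, 5′ to 3′ on the gene's strand, from members called at 2-fold or more with shNFYA that hold one of these motifs, given in capitals. RAB7B (CCAAT) and RAB9B (CACATG) are also such members, and RAB30 and RAB40C have further windows with CCAAT or ATTGG, none of which is printed. RAB27A has 5 windows, and of these only the printed window holds CCAAT or ATTGG. The examples are RAB30 (fell by 2.19; chr11:83071898-83072147, minus strand), RAB27A (fell by 1.95 on the probe set used; chr15:55270923-55271172, minus strand, where CCAAT and ATTGG overlap), RAB40C (rose by 1.00; chr16:589107-589356, plus strand) and RAB17, with CACATG and no CCAAT (fell by 2.58; chr2:237590735-237590984, minus strand).
RAB30: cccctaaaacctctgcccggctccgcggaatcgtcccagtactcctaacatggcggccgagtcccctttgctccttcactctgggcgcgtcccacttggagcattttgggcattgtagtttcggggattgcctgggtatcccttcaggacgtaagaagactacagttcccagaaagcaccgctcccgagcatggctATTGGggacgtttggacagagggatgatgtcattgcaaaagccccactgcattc
RAB27A: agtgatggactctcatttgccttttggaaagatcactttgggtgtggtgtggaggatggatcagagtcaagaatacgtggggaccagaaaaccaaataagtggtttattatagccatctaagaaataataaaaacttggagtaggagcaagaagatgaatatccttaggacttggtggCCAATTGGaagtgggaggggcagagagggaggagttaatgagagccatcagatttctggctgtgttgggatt
RAB40C: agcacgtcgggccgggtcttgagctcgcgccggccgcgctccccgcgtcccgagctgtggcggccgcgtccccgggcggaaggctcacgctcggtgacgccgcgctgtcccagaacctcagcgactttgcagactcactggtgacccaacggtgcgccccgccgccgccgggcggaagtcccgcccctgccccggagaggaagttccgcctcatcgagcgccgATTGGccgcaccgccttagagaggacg
RAB17: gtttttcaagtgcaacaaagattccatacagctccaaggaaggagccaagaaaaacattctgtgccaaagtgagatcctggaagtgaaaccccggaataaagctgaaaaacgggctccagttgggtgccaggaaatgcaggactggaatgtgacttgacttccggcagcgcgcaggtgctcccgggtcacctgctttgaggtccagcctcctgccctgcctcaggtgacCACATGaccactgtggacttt

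In these windows ATTGG begins 54 bases before the start in RAB30 and 27 in RAB40C, the overlapping pair begins 72 bases before it in RAB27A, and CACATG begins 21 bases before it in RAB17. ATTGG thus stood both before a start of RAB40C, which was higher with shNFYA, and before a start of RAB30, which was lower.

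The median size of the difference with PMEL was 0.10 log2 for RAB genes and 0.14 for all genes. At an adjusted p under 0.05, 15 of 43 RAB genes were called, 4 higher and 11 lower, where 39.9% of all genes were called, 22.1% higher and 17.8% lower. At 2-fold or more 0 RAB genes were called, where 2.14% of all genes were, 0.521% higher and 1.62% lower. Without replicate 3 of GFP and PMEL 9 were called, 1 higher and 8 lower, where 29.7% of all genes were, and leaving out 1 array at a time gave 10 to 16. The 4 melanosome RABs did not pass the test: RAB27A differed by 0.09 (adjusted p = 0.285), RAB27B by 0.03 (adjusted p = 0.864), RAB32 by 0.16 (adjusted p = 0.0885) and RAB38 by 0.02 (adjusted p = 0.885). Without replicate 3 of both groups they differed by 0.08, 0.17, 0.14 and 0.00 in that order, and again 0 of the 4 passed. RAB26 had the largest called difference, a fall of 0.72 ± 0.12 (adjusted p = 0.000121), followed by RAB17 (-0.48, adjusted p = 0.002). Both calls were also made without replicate 3 of both groups, at -0.86 (adjusted p = 0.000387) for RAB26 and -0.40 (adjusted p = 0.0424) for RAB17. RAB5A (0.14, adjusted p = 0.00599; PMEL arrays at 13.17, 13.19 and 13.19) and RAB7A (0.11, adjusted p = 0.0245; PMEL arrays at 12.16, 12.14 and 12.21) were higher, and neither call held with replicate 3 of GFP and PMEL left out (0.13 with adjusted p = 0.0526 for RAB5A, and 0.07 with adjusted p = 0.3 for RAB7A). RAB29, with PMEL arrays at 11.68, 11.66 and 11.63, differed by 0.06 (adjusted p = 0.179), and by 0.09 (adjusted p = 0.144) without those arrays.

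With shFHL2 against GFP in C32, 30 of 43 RAB genes were called, 15 higher and 15 lower. Of all genes 62.6% were called, 32.2% higher and 30.3% lower. At 2-fold or more 6 were called, 1 higher and 5 lower, where 8.56% of all genes were, 3.52% higher and 5.04% lower. Besides RAB38, RAB27A and RAB27B, given above, these were RAB9B, RAB20 and RAB33B. RAB9B, a late endosome RAB, stood at 4.71 and 4.65 in C32 GFP and at 2.85, 2.54 and 2.83 in shFHL2, which is under the filter level. The fitted fall was 1.94 ± 0.13 (adjusted p = 6.5e-10), and with values under log2 4 set to 4 it was 0.68. RAB20 stood at 5.84 and 5.79 in GFP and 4.81, 4.56 and 4.43 in shFHL2, a fall of 1.21 ± 0.11 (adjusted p = 5.16e-08). RAB33B stood at 7.93 and 7.87 in GFP and 6.63, 6.67 and 6.67 in shFHL2, a fall of 1.24 ± 0.14 (adjusted p = 5.06e-07).

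The members followed in every group were RAB5A, RAB7A and RAB29 besides the melanosome RABs. RAB5A was at 12.71 and 12.70 in C32 GFP and 12.44, 12.44 and 12.40 in C32 shFHL2, and fell by 0.28 ± 0.04 (adjusted p = 1.27e-05). RAB7A was at 12.16 and 12.21 and at 11.99, 11.90 and 11.94, and fell by 0.24 ± 0.04 (adjusted p = 4.61e-05). RAB29 had a mean of 12.05 ± 0.08 (SD) in C32 GFP and stood at 12.65, 12.71 and 12.67 in C32 shFHL2, and it rose by 0.62 ± 0.04 (adjusted p = 2.43e-10). By role, called genes in C32 shFHL2 were 2 higher and 3 lower of 8 in the endoplasmic reticulum and Golgi, 7 and 5 of 16 in early and recycling endosomes, 2 and 4 of 8 in late endosomes and lysosomes, 2 and 2 of 4 on melanosomes, 0 and 1 of 3 in regulated secretion, and 2 and 0 of 4 others.

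The shFHL2 difference itself differed between the lines for 32 of 43 RAB genes, 16 more positive and 16 more negative in C32, where 80.2% of all genes were called, 42.1% and 38.1% in these directions. At 2-fold or more this held for 13 RAB genes, where 34% of all genes were called, 17.2% and 16.7% in these directions. RAB9B rose by 0.93 in A375M2 and fell by 1.94 in C32 (difference of the differences -2.87), and RAB33B rose by 0.85 and fell by 1.24 (-2.09). RAB5C differed by -1.42 in A375M2 and 0.45 in C32 (1.87), and RAB28, a RAB of cilia, by -0.68 and 0.33 (1.02). RAB39B (-7.21), RAB7B (1.64), RAB26 (1.59), RAB3A (1.42) and RAB17 (1.40) had their larger change in A375M2. RAB38 (-3.33), RAB27B (2.08), RAB20 (-1.42) and, on the probe set used, RAB27A (-1.20) had theirs in C32. In A375M2 the shFHL2 and GFP arrays came from different array sets, and in C32 they did not by the shared low values. Shared low values do not show whether the C32 samples were prepared together. Mean poly-A spike-in signal was 9.37 in C32 GFP and 5.96 in C32 shFHL2, and 7.15 and 6.57 in the same groups of A375M2. The part of this control signal in the differences was not tested.

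**Figure D4:**
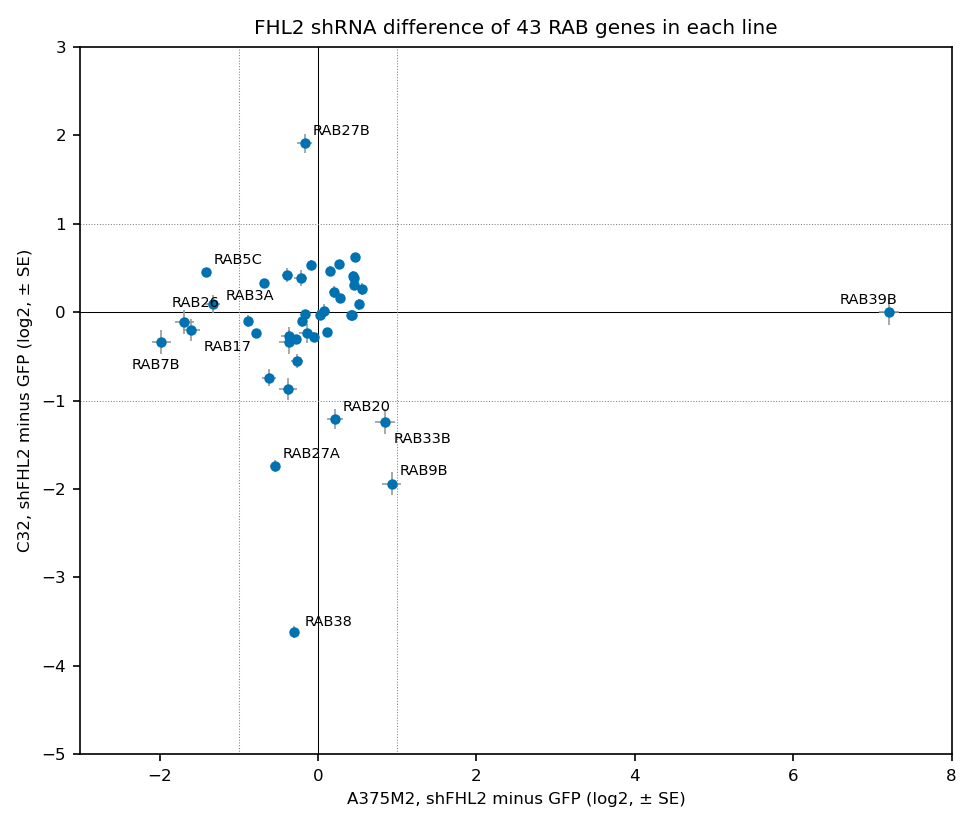
FHL2 shRNA difference in A375M2 (x axis) and in C32 (y axis) for 43 RAB genes, in log2, with SE bars; dotted lines mark 2-fold and genes past it on either axis are named. RAB39B lies far right, RAB38 at the bottom, RAB27B at the top, and no gene lies past 2-fold in both lines.

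The lines with the control vector differed at 35 of 43 RAB genes, 20 higher and 15 lower in C32, where 85.9% of all genes were called, 38.7% higher and 47.2% lower. At 2-fold or more 13 differed, 6 higher and 7 lower, where 43.1% of all genes did, 18.3% higher and 24.8% lower. RAB31, a RAB of traffic between the Golgi and endosomes, stood at 8.46, 8.31 and 8.51 in A375M2 GFP and at 2.39 and 2.40 in C32 GFP. It was lower in C32 by 6.03 ± 0.09 (RAB31 differed by -4.43 with values under log2 4 set to 4), and all 3 of its probe sets had C32 means under 2.5. A drop from 8 or more in all A375M2 GFP arrays to under 4 in all C32 GFP arrays was found for 141 genes. The other genes lower in C32 were RAB26 (-4.03), RAB13, a RAB of epithelial junctions (-3.09), RAB24, a RAB of autophagy (-2.83), RAB3D (-2.57), RAB4A, a RAB of fast recycling (-1.44), and RAB38 (-1.33). Those higher were RAB27A (16-fold), RAB32 (2.42), RAB8B (1.75, and 0.34 on its most variable probe set), RAB33B (1.47), RAB15 (1.31) and RAB23, a brake on Hedgehog signalling (1.28).

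Some of these line differences held over every treatment. All 12 A375M2 arrays lay above all 5 C32 arrays by at least 2-fold for RAB31 (gap of 5.88 log2), RAB13 (2.76), RAB3D (2.13), RAB26 (2.05) and RAB24 (1.77), which is 5 of 43 genes where 9.56% of all genes did so. The reverse held for RAB27A (2.08), RAB32 (1.81), RAB8B (1.30) and RAB23 (1.03), 4 of 43 where 6.68% of all genes did so. RAB13 stood at 14.73, 14.63 and 14.66 in A375M2 GFP and at 11.54 and 11.63 in C32 GFP, and its A375M2 shRNA arrays lay between 14.39 and 14.53. With shFHL2 in both lines, 37 of 43 RAB genes differed, 22 higher and 15 lower in C32, where 90.2% of all genes were called, 41.3% higher and 48.9% lower. By 2-fold or more 20 differed, 10 each way, where 47.1% of all genes did, 21% higher and 26.1% lower. Higher in C32 were RAB32 (3.22), RAB27A (2.80), RAB7B (2.53), RAB8B (2.04), RAB27B (1.91), RAB15 (1.40), RAB28 (1.33), RAB17 (1.27), RAB23 (1.22) and RAB5C (1.09). RAB39B, RAB31 and RAB9B were under log2 4 in C32 shFHL2 and differed by -7.22, -6.10 and -2.84, or by -5.42, -4.50 and -1.58 with values under log2 4 set to 4. The other genes lower in C32 were RAB38 (-4.66), RAB24 (-3.11), RAB13 (-2.94), RAB3D (-2.54), RAB26 (-2.44), RAB20 (-2.08) and RAB4A (-1.50). All these values are of the probe set used. Between the shFHL2 groups, 7 of 27 genes with at least 2 probe sets at a mean of log2 4 or more had some called both ways. RAB4A and RAB8B are among the 7, so the gap of RAB8B over every treatment is also that of the probe set used.

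Partner genes of the RAB cycle were counted from fixed lists. Of all genes, 41.1% were called higher and 44.3% lower with shFHL2 in A375M2, and 43.5% and 43.3% with shNFYA. With PMEL these shares were 22.1% and 17.8%, and with shFHL2 in C32 they were 32.2% and 30.3%. Of 6 measured effectors of RAB27, shFHL2 in A375M2 gave 1 higher and 4 lower, shNFYA 1 and 4, PMEL 0 and 2, and shFHL2 in C32 2 and 2. Melanophilin, the link between RAB27A and myosin Va, was lower in all 4: MLPH differed by -2.86 with shFHL2, -2.55 with shNFYA and -1.46 with PMEL in A375M2, and by -1.90 with shFHL2 in C32. Its mean signals were 7.51, 4.64, 4.96, 6.05, 8.25 and 6.34 in A375M2 GFP, shFHL2, shNFYA and PMEL and in C32 GFP and shFHL2. MYO5A was lower with shFHL2 and shNFYA in A375M2 (-1.54 and -3.23) and with shFHL2 in C32 (-0.28). SYTL2, a synaptotagmin-like effector, was lower with shNFYA (-1.95) and with PMEL (-0.55). Without replicate 3 of GFP and PMEL the PMEL differences were -1.36 for MLPH and -0.58 for SYTL2, both still called. SYTL4, which docks secretory granules, had signals of 2.38, 2.32 and 2.53 in A375M2 GFP, 4.54, 3.37 and 4.49 in shFHL2 and 6.09, 6.06 and 6.12 in shNFYA, so that its level in GFP is under the filter level. With values under log2 4 set to 4 it differed by 0.34 and 2.09. In C32 MYRIP, which links RAB27A to unconventional myosins, rose by 2.04, and SYTL5 rose by 1.31.

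**Figure D5:**
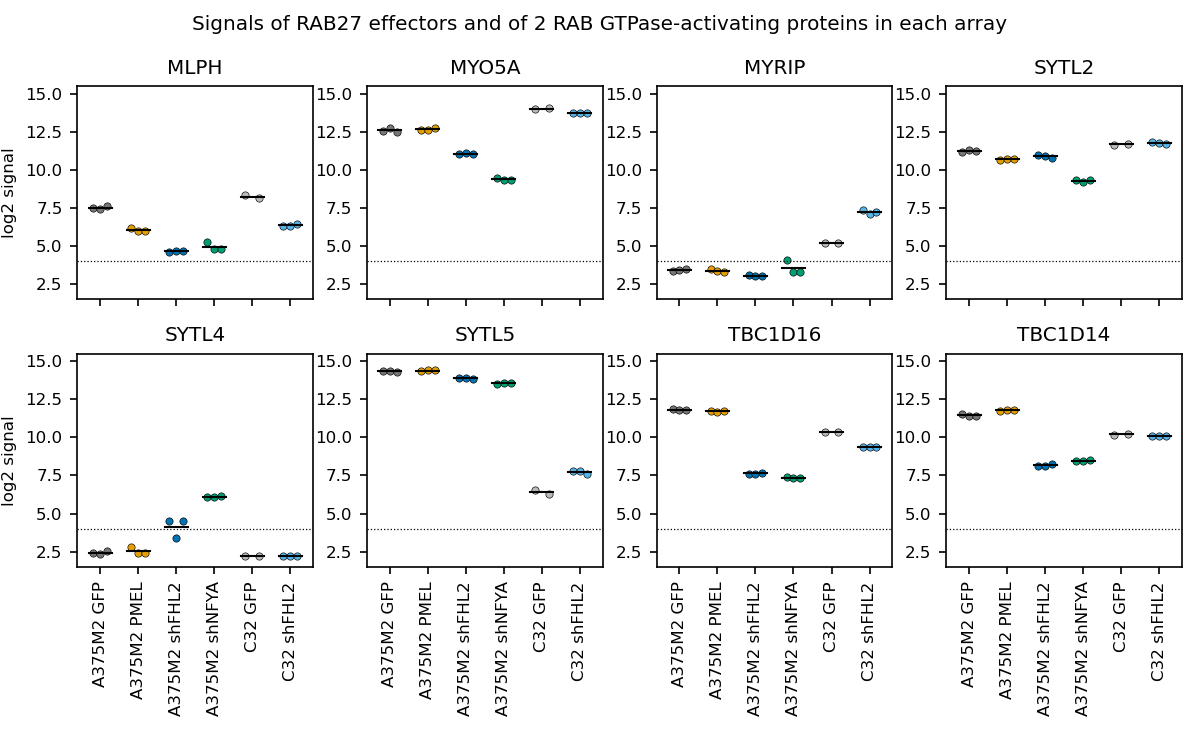
Log2 signal of 6 effectors of RAB27 and of 2 GTPase-activating proteins (TBC1D16 and TBC1D14) in each array; bars are group means and the dotted line is log2 4. MLPH is below GFP in every other group of its line, and TBC1D16 and TBC1D14 drop in both A375M2 shRNA groups.

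Of 25 measured GTPase-activating proteins, 6 were higher and 15 lower with shFHL2 in A375M2, 6 and 14 with shNFYA, 2 and 4 with PMEL, and 5 and 12 with shFHL2 in C32. In the same order, 85.4%, 86.8%, 39.9% and 62.6% of all genes were called. TBC1D16, which acts on RAB4 and RAB5 proteins, differed by -4.18 with shFHL2 and -4.48 with shNFYA in A375M2, and it was lower in C32 shFHL2 too (adjusted p = 2.27e-12 in the limma fit). TBC1D14, an autophagy regulator, was lower with both A375M2 shRNAs (-3.27 and -2.98) and higher with PMEL (0.32, and 0.30 without replicate 3 of GFP and PMEL, also called). TBC1D4 was lower too (-1.71 and -2.35), and TBC1D10A, which acts on RAB27A and RAB35, fell by 2.23 with shFHL2. In C32, TBC1D9 fell by 1.18.

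Of 24 measured exchange factors, 10 were higher and 11 lower with shFHL2 in A375M2, 9 and 14 with shNFYA, 6 and 1 with PMEL, and 5 and 11 with shFHL2 in C32. The shares of all genes called were 85.4%, 86.8%, 39.9% and 62.6% in that order. RAB3IP (Rabin8), the activator of RAB8, rose by 1.76 and 2.44 with the A375M2 shRNAs, and RIN2, an activator of RAB5, was lower with shNFYA (-2.15) and in C32 (-1.61). ANKRD27 (VARP), which binds RAB32 and RAB38 and activates RAB21, fell by 0.81 in A375M2 shFHL2 and rose by 0.64 in C32. HPS4, of the complex that loads RAB32 and RAB38, differed by 0.29 with PMEL, a call that was lost without replicate 3 of GFP and PMEL (0.22, adjusted p = 0.0847).

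Of 10 measured genes for prenylation, escort and GDI functions, 7 were higher and 2 lower in each of A375M2 shFHL2, A375M2 shNFYA and C32 shFHL2, and 2 were higher and 3 lower with PMEL. RABIF rose by 0.99, 2.03 and 0.54 in the 3 shRNA comparisons, and CHML, an escort protein of RAB prenylation, was lower in A375M2 (-0.60 and -1.06) and higher in C32 (0.39). Of 33 measured effectors of other RAB proteins, 9 were higher and 19 lower with shFHL2 in A375M2, 15 and 15 with shNFYA, 2 and 3 with PMEL, and 5 and 16 in C32. For both lists, the shares of all genes called were 85.4% with shFHL2 and 86.8% with shNFYA in A375M2, 39.9% with PMEL and 62.6% in C32. EEA1, the early endosome tether of RAB5, was lower with shFHL2 and shNFYA in A375M2 (-1.47 and -1.55). So were OSBPL1A, a lipid-binding effector of RAB7 (-1.67 and -1.51), and MICAL3, an effector of RAB8 (-1.68 and -2.56). Without replicate 3 of GFP and PMEL, PMEL gave 0 higher and 2 lower effectors of RAB27, 1 and 3 GTPase-activating proteins, 4 and 1 exchange factors, 2 and 2 genes of prenylation, escort and GDI, and 1 and 1 effectors of other RAB proteins. Without these arrays 29.7% of all genes were called with PMEL. These partner lists are read beside the shares of all genes called that were given above for each comparison.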

How the data were processed

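The deposited values are log2 signals of 18 Affymetrix 3′ arrays. Per the submitters' processing notes GCRMA was used, with no version stated. The table held here has 23416 probe sets. Symbols came from the platform annotation, updated by Entrez ID through the RefSeq table.

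A single-symbol probe set entered if 3 or more of the 18 arrays reached log2 4, and the brightest 1 a gene gave 10940 genes. Means of 17 arrays were estimated by limma 3.58.1 under R 4.3.3 (lmFit, then eBayes with a trend, 11 residual degrees of freedom), and p-values were adjusted by Benjamini-Hochberg within each of 8 comparisons. Called means an adjusted p below 0.05. The pipeline was tested on simulated data. Plots used matplotlib 3.10.9. The number of arrays limits the precision: the median SE of a log2 difference was 0.0711 within A375M2 and 0.0795 in C32. Samples of A375M2 came from 3 separate experiments, per the series text.

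The RAB genes and lists were chosen with earlier results of these data known. Named genes are RAB27A, RAB27B, RAB32, RAB38, RAB29, RAB7A and RAB5A, members called at 2-fold or more (up to 12 each way), and up to 4 called genes with the smallest adjusted p in each partner list. Other genes named for a count, a range or a motif, such as RAB2B, RAB5B and RAB1A, were chosen once their values had been seen. The effect of the filter, a floor at log2 4, scaling, the probe set rule, the eBayes trend, the threshold, a replicate block and left-out arrays was tried; the block by array set, and the floor and left-out arrays for partner genes, were added after the data were seen.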

Additional observations from a re-analysis of the deposited data

Results flagged for a closer look

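For 13 RAB genes the difference between shFHL2 and GFP differed between C32 and A375M2 by 2-fold or more, by a test of that difference in the limma fit (adjusted p under 0.05). C32 was more negative for RAB39B (-7.21), RAB38 (-3.33), RAB9B (-2.87), RAB33B (-2.09), RAB20 (-1.42) and RAB27A (-1.20). C32 was more positive for RAB27B (2.08), RAB5C (1.87), RAB7B (1.64), RAB26 (1.59), RAB3A (1.42), RAB17 (1.40) and RAB28 (1.02). With values under log2 4 set to 4, RAB39B was at -5.42 and RAB9B at -1.61. RAB39B and RAB9B lie under log2 4 in some groups. In A375M2 array set and shRNA cannot be told apart, which touches all 13 values.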

How the results depend on the processing

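Over 30 alternative settings 3346 values kept their direction and their side of the threshold, 27 lost the call, 12 gained it and 11 reversed. Most of these settings left out 1 array and kept the probe set of each gene, so the tally says little about probe sets. Of 27 genes with several probe sets, 10 had some called both ways with shNFYA and 7 with shFHL2 in A375M2. All 11 reversals came from the choice of probe set; the cause was not tested. With the mean over probe sets, RAB27A in A375M2 shFHL2 was 0.25, RAB7A with PMEL -0.09 and RAB6B with shNFYA -0.11. With the probe set of largest variance, RAB5A was -0.10 with PMEL and 0.06 in C32 shFHL2, RAB6B -1.24 and RAB22A -0.80 with shNFYA, RAB6B 0.03 and RAB22A 0.06 in shFHL2 against shNFYA, RAB8B -0.33 between the shFHL2 groups of both lines, and RAB29 -0.05 in the difference between lines.

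Counts of RAB genes at 2-fold or more moved to 14 for A375M2 shFHL2 with the largest-variance probe set, and to 4 for shFHL2 against shNFYA both with that probe set and with the mean over probe sets. No shares of all genes stand beside the counts in this paragraph, which say only how far the RAB counts move. PMEL called 9 without replicate 3 of GFP and PMEL, and 15 with these replicate 3 arrays set apart as a block. That block does not cover the array set of the A375M2 shRNA arrays. Leaving out 1 array gave 34 to 39 called for A375M2 shFHL2 (6 to 6 at 2-fold or more), 10 to 16 for PMEL (0 to 0), 35 to 38 for shNFYA (11 to 13), 27 to 31 for C32 shFHL2 (6 to 7), 29 to 32 for shFHL2 against shNFYA (6 to 8), 34 to 36 between the GFP groups (13 to 13), 37 to 37 between the shFHL2 groups (20 to 20) and 29 to 32 for the difference between lines (12 to 13). Where this left C32 GFP with 1 array, that array was assumed to vary like the other groups. Deviations of same-numbered samples did not correlate above 0.1 in all pairs of any comparison, so the numbers were not taken as pairs. With the replicate block the counts called were 36, 15, 37, 29, 30, 35, 37 and 31 in the order above. Median centring moved the median of all genes from 0.00 to 0.11 in shNFYA, and there RAB5A rose by 0.12 and passed the test.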
